A study of Bos taurus with 14 samples.

Results

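The small leucine-rich proteoglycans are a family of secreted matrix proteins, and 7 of their genes were followed here: decorin (DCN), biglycan (BGN), asporin (ASPN), lumican (LUM), fibromodulin (FMOD), PRELP and osteoglycin (OGN). They were taken as the rows of the gene count table that carry these symbols, 7 of 18078 rows. In the order just given, the table identifies them as ENSBTAG00000003505, ENSBTAG00000005250, ENSBTAG00000011847, ENSBTAG00000001745, ENSBTAG00000014912, ENSBTAG00000017834 and ENSBTAG00000011824. All 7 passed the filter on low counts, which 12187 genes passed. RNA was sequenced in 14 female offspring slaughtered at postnatal day 485, from the longissimus dorsi, a long back muscle. In the restricted group of 7 animals the dams had been underfed from day 158 of pregnancy until they calved. In the control group of 7 animals the dams had received 100% of their nutritional requirement over that time. The restricted level is given as 70% in the description of the series and as 50% in the sample protocol, so it is named here without a percentage. All offspring were managed alike after birth, with free access to feed from day 301. The 14 samples are 14 animals, whose relatedness is not stated.

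The sample titles end, before the group name, in the letter A or B, which is explained nowhere in the labels. It was used to split the animals by title and is not a treatment. There were 9 A animals, 4 restricted and 5 control, and 5 B animals, 3 restricted and 2 control. The rule for these genes also asked for their relation to COL1A1, which encodes the main chain of type I collagen, and to PDGFRA, a receptor that marks fibroblasts and fibro-adipogenic progenitors of muscle.

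Small leucine-rich proteoglycans have a curved core protein of leucine-rich repeats, to which chondroitin, dermatan or keratan sulfate chains are attached in many of them. They bind collagen fibrils in the connective tissue around muscle fibres and fascicles, where they influence fibril diameter and spacing, and several of them bind TGF-beta. In skeletal muscle they are made mainly by fibroblasts and related stromal cells rather than by the fibres. DCN, BGN and ASPN form class I of the family, LUM, FMOD and PRELP belong to class II, and OGN belongs to class III.

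Total counts per animal ran from 14753204 to 17325779 in restricted and from 13631018 to 16976248 in control animals, and from 13631018 to 16683078 in A and from 15515905 to 17325779 in B animals. The counts behind the members ranged from 52 to 193 reads per animal for ASPN, the least read, and from 1412 to 3427 for DCN, the most read. The muscle fibre markers fixed for the labelled tissue summed to 258000 to 296000 CPM (reads scaled to a common library size) in restricted and 230000 to 283000 CPM in control animals, led by MYH1 and ACTA1. All 18 fibroblast and progenitor markers were detected, with summed levels of 397 to 573 CPM in restricted and 428 to 646 CPM in control animals.

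DCN was the most abundant member in every animal. Levels were compared between genes per kilobase of the deposited gene length (RPKM). DCN, whose protein binds type I collagen fibrils and limits their lateral growth, averaged 69.9 ± 16.3 RPKM (SD, n = 14), more than 93.8% of the named genes tested. LUM, which regulates fibril assembly and is best known from the cornea, averaged 11.9 ± 3.8 RPKM. OGN, also called mimecan, averaged 6.83 ± 1.74 RPKM. PRELP, which binds heparan sulfate and collagen and links basement membranes to connective tissue, followed at 6.52 ± 1.64 RPKM. FMOD, a collagen-binding protein prominent in tendon, averaged 4.96 ± 2.34 RPKM. BGN, a relative of decorin that when set free can also signal through Toll-like receptors, averaged 3.4 ± 0.949 RPKM. ASPN, named for its stretch of aspartate residues and known to bind TGF-beta, was the lowest at 2.32 ± 1.01 RPKM and still exceeded 31.8% of the named genes tested. For scale, COL1A1 averaged 17.0 ± 7.55 RPKM and PDGFRA 2.56 ± 0.569 RPKM.

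DCN stood at the top and ASPN at the bottom of the order in every animal, and the places between them were looser. DCN exceeded LUM in 14 of 14 animals, by 4.39- to 9.08-fold, and LUM exceeded OGN in 14 of 14, by 1.08- to 2.23-fold. LUM was not second in every animal, since in restricted 4 PRELP had 9.1 RPKM and LUM 8.2 RPKM. OGN exceeded PRELP in 8 of 14 animals, so these neighbours did not differ beyond their spread. PRELP lay above FMOD in 12 animals, FMOD above BGN in 11, and BGN above ASPN in 14, by 1.09- to 2.04-fold. DCN made up 66.1% ± 3.37 (SD, n = 14) of the 7 genes' summed RPKM, between 61.0% and 71.7% in single animals. The members differed in how much they varied: in CPM, the highest animal exceeded the lowest by 1.97-fold for DCN and by 4.03-fold for FMOD, and the coefficient of variation ran from 23.3% for DCN to 47.2% for FMOD.

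**Figure D1:**
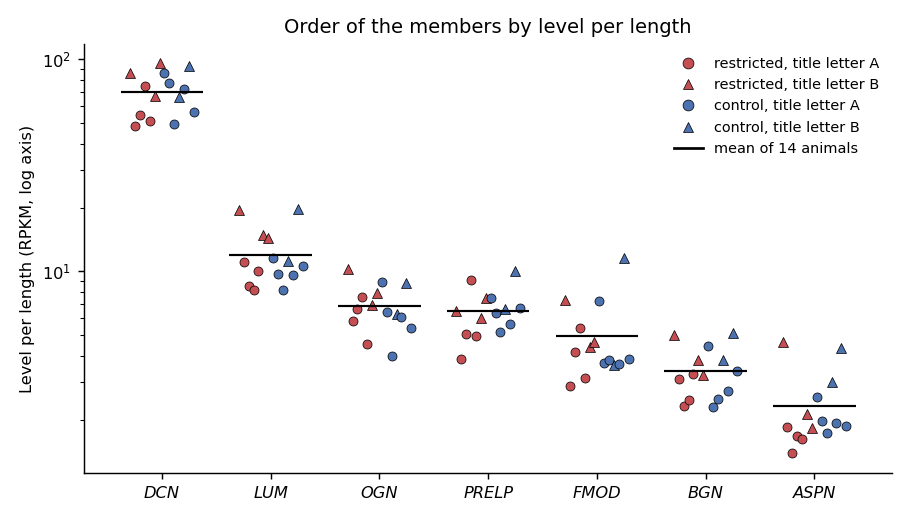
Level of the 7 members in RPKM on a log axis, with 1 symbol per animal (circles A, triangles B; red restricted, blue control) and a black line at the mean of 14 animals. DCN stands above every other member at a mean of 69.9 RPKM, and ASPN is the lowest member at 2.32 RPKM.

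Whether the dam's diet was associated with the proteoglycan genes in grown offspring is the question the study's design poses, and no member passed the threshold. Here and below, the test by diet is edgeR's quasi-likelihood test, restricted over control, with Benjamini-Hochberg adjustment over all 12187 genes and a threshold of 0.05. The number of members called was 0 of 7, beside 0% of all genes, and every member had an adjusted p of 1.0. At an unadjusted edgeR p under 0.05 there were 0 members, beside 2.17% of all genes higher and 2.08% lower, 518 in number. DESeq2 called 1 of all genes and limma voom 0, none of them a member. The median log2 fold change was -0.07 over the members and -0.00079 over all genes, with 2 members on the positive and 5 on the negative side. The 95% intervals of all 7 fold changes lay between 0.567 and 1.45. With the title letter as a covariate, the log2 fold changes ran from -0.32 for ASPN (edgeR adjusted p = 0.998) to 0.05 for OGN, LUM was at -0.02, against 0.10 without the covariate, and 0 members were called.

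Of the class I genes, DCN had 103.8 CPM in the lowest, 143.5 in the median and 204.7 in the highest restricted animal, against 106.4, 154.3 and 199.9 CPM in control animals. Its fold change was 0.952 (95% interval 0.748 to 1.21). BGN had 5.23, 7.34 and 11.4 CPM in the lowest, median and highest restricted animal, against 5.18, 7.64 and 11.6 CPM in control animals, a fold change of 0.959 (0.719 to 1.28). The ranges of both genes were nearly superimposed. ASPN had 3.28, 4.33 and 10.9 CPM in restricted animals, against 4.07, 4.64 and 10.3 CPM in control animals, a fold change of 0.869 (0.586 to 1.29). For ASPN each group held a single animal above 10 CPM, restricted 7 and control 2.

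Of the class II genes, LUM had 15.1, 20.3 and 35.6 CPM in the lowest, median and highest restricted animal, against 15.1, 19.4 and 36.2 CPM in control animals, a fold change of 1.07 (0.792 to 1.45). FMOD had 9.04, 13.9 and 23.1 CPM in restricted animals, against 11.4, 12.1 and 36.5 CPM in control animals, a fold change of 0.853 (0.567 to 1.28). The highest FMOD value belonged to control 2, a B animal. The groups overlapped, with 2 restricted animals below every control animal. PRELP had 14.8, 23.0 and 34.7 CPM in restricted animals, against 19.8, 25.4 and 38.2 CPM in control animals, a fold change of 0.893 (0.695 to 1.15). OGN, of class III, had 11.1, 17.0 and 24.9 CPM in restricted animals, against 9.72, 15.3 and 21.7 CPM in control animals, a fold change of 1.08 (0.831 to 1.41). No member separated the diets, as 0.0328% of all genes did with every restricted animal below every control animal and 0.0246% with every restricted animal above.

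**Figure D2:**
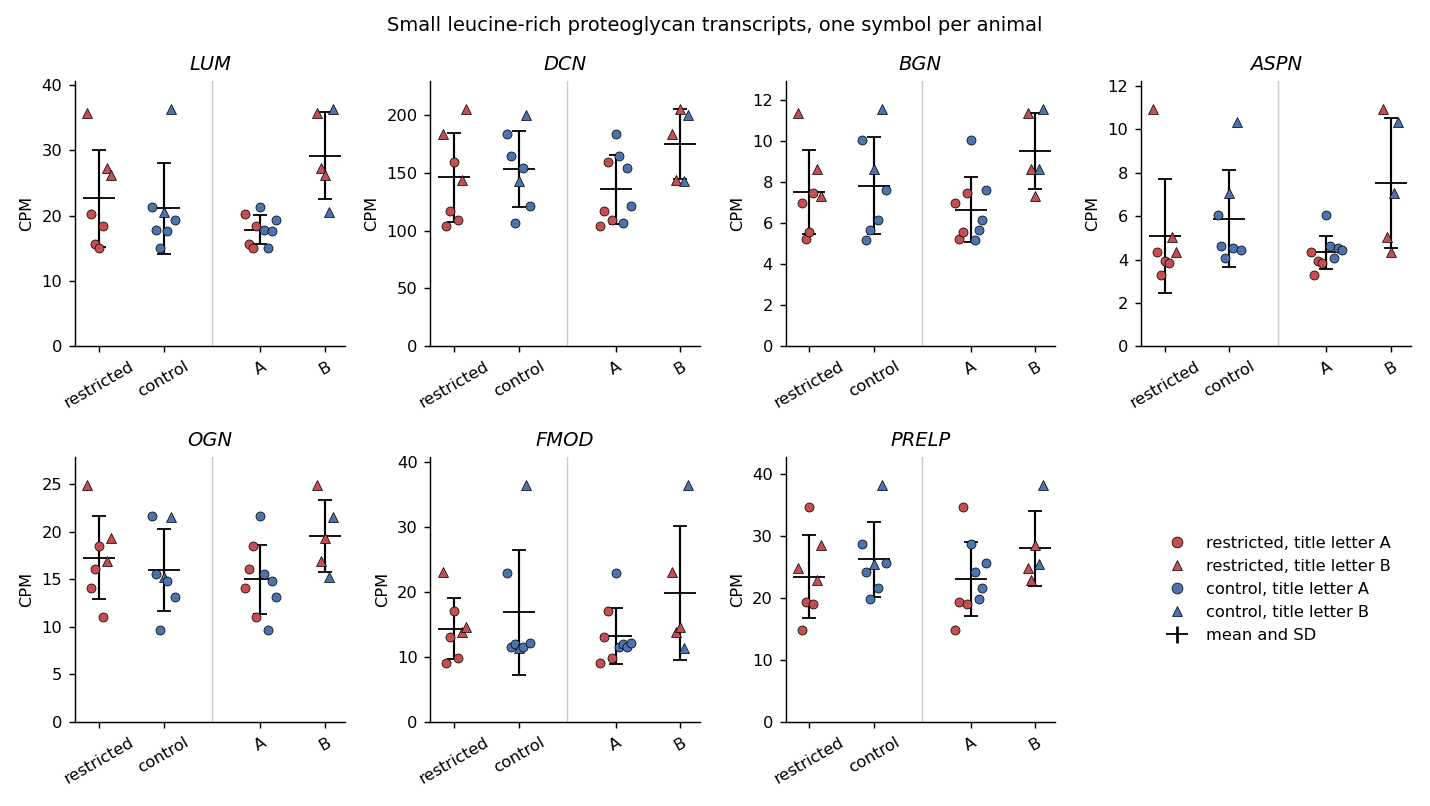
CPM of each member per animal, with restricted and control animals on the left and A and B animals on the right of each panel, and the mean with its SD. The diet groups overlap in all 7 panels, and the single highest FMOD value, 36.5 CPM, is a control animal, while for LUM 4 of 5 B animals lie above the highest A animal.

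No gene of the lists around these proteoglycans passed the threshold by diet. COL1A1 averaged 83.0 ± 42.5 CPM in restricted and 81.2 ± 32.9 CPM in control animals (SD, n = 7 each), a fold change of 1.02 (0.667 to 1.57). PDGFRA averaged 18.7 ± 4.04 CPM in restricted and 20.3 ± 4.79 CPM in control animals, a fold change of 0.922 (0.737 to 1.15). Among 14 genes of collagen fibrils and their partners 0 passed in either direction, and 5 log2 fold changes were positive and 9 negative. ELN, the gene of elastin, had the smallest p of that list, with 13.6 ± 3.09 CPM in restricted and 17.3 ± 3.63 CPM in control animals and a log2 fold change of -0.35 (edgeR adjusted p = 1.0). On the positive side COL5A2, a type V collagen chain, had the smallest p, with a log2 fold change of 0.12.

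Among 16 genes of TGF-beta ligands, receptors and latency 0 passed, with 5 positive and 11 negative changes. TGFB2, a ligand, had 14.2 ± 3.03 CPM in restricted and 11.1 ± 1.28 CPM in control animals (log2 fold change 0.35, edgeR adjusted p = 1.0). LTBP2, a latent TGF-beta binding protein family member, had 2.02 ± 0.301 CPM in restricted and 2.73 ± 0.656 CPM in control animals (log2 fold change -0.43, edgeR adjusted p = 1.0). None of 24 tested genes for the synthesis of glycosaminoglycan chains passed, with 9 positive and 15 negative changes. CHSY1, a chondroitin synthase, had the smallest p on the positive side (log2 fold change 0.23), and B4GALT4, a galactosyltransferase, on the negative side (-0.22). None of 9 tested proteases and inhibitors that can process or cleave the core proteins passed, with 3 positive and 6 negative changes. ADAMTS9 (0.41) and ADAMTS4 (-0.58), both proteoglycan-cleaving proteases, had the smallest p on each side.

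Of 14 other matrix proteoglycans tested, 0 passed, with 8 positive and 6 negative changes. SDC2, a cell-surface heparan sulfate proteoglycan, had 36.9 ± 3.39 CPM in restricted and 31.2 ± 3.67 CPM in control animals (log2 fold change 0.24, edgeR adjusted p = 1.0). CSPG4, a chondroitin sulfate proteoglycan of pericytes, had the smallest p on the negative side (-0.20). Of 11 further leucine-rich repeat proteoglycans and relatives, 5 were read deeply enough to be tested, KERA, ECM2, CHAD, PODN and TSKU, and 0 passed by diet, with log2 fold changes of 0.01 for CHAD and -0.22 for PODN, those of smallest p on each side. EPYC, OMD and OPTC, close relatives of the members, had at most 9 reads in any animal and were not tested.

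By title letter all 7 members had lower fitted levels in A than in B animals, and none passed the threshold. This fit compares A with B and keeps diet as a covariate. The members' median log2 fold change was -0.54, beside 0.0034 over all genes. At an unadjusted edgeR p under 0.05, 6 of 7 members lay lower in A, beside 3.81% of all genes, and 0 lay higher, beside 2.12%. The titles also begin with an unexplained letter, R or Y. With that letter as a further covariate, 3 of 7 members, LUM, BGN and ASPN, had an unadjusted edgeR p under 0.05. In that fit 636 of 12187 genes in either direction had such a p. With adjustment over all genes, 0 of 7 members were called, beside 0% of all genes. Bulk RNA does not tell fewer cells of a type from less RNA per cell, here or in the comparisons that follow.

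LUM had the smallest p of the members. It had 15.1, 17.8 and 21.3 CPM in the lowest, median and highest A animal, against 26.2, 27.2 and 35.6 CPM in restricted B animals and 36.2 and 20.6 CPM in control B animals. Of the A animals, 8 of 9 lay below the lowest B animal, and control 4 was the B animal that overlapped with them. Its fold change, A over B, was 0.61 (95% interval 0.504 to 0.739, edgeR adjusted p = 0.223), and it ranked 3 of all genes by p. FMOD had 9.04, 12.1 and 22.9 CPM in the lowest, median and highest A animal, against 14.6, 13.9 and 23.1 CPM in restricted B animals and 36.5 and 11.4 CPM in control B animals. Its groups overlapped, with 2 of 9 A animals below the lowest B animal and 2 of 5 B animals above the highest A animal, and the fold change was 0.652 (0.45 to 0.945, edgeR adjusted p = 0.804). PRELP had 14.8, 21.6 and 34.7 CPM in A animals, against 28.6, 23.0 and 24.9 CPM in restricted B animals and 38.2 and 25.4 CPM in control B animals. Its interval included no change, with a fold change of 0.81 (0.634 to 1.04, edgeR adjusted p = 0.863).

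In class I, ASPN had the largest fold difference. It had 3.28, 4.35 and 6.03 CPM in the lowest, median and highest A animal, against 4.33, 5.03 and 10.9 CPM in restricted B animals and 10.3 and 7.09 CPM in control B animals. Its fold change was 0.557 (0.421 to 0.737, edgeR adjusted p = 0.404), and 3 of 5 B animals lay above the highest A animal. BGN had 5.18, 6.16 and 10.1 CPM in A animals, against 7.34, 8.64 and 11.4 CPM in restricted B animals and 11.6 and 8.64 CPM in control B animals. Among A animals control 7 stood apart at 10.1 CPM, and the fold change was 0.69 (0.544 to 0.876, edgeR adjusted p = 0.715). DCN had 103.8, 121.4 and 183.7 CPM in A animals, against 204.7, 143.5 and 183.9 CPM in restricted B animals and 199.9 and 142.7 CPM in control B animals. Its fold change was 0.759 (0.611 to 0.944, edgeR adjusted p = 0.788). OGN had 9.72, 14.8 and 21.7 CPM in A animals, against 19.3, 17.0 and 24.9 CPM in restricted B animals and 21.5 and 15.3 CPM in control B animals. Its fold change was 0.77 (0.6 to 0.987, edgeR adjusted p = 0.829). A and B animals overlapped for every member, and 0.0656% of all genes had every A animal below every B animal.

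The call depended on the tool. DESeq2 called 20 genes by letter, 3 higher and 17 lower in A, among them LUM (DESeq2 adjusted p = 0.0022), ASPN (DESeq2 adjusted p = 0.0335) and COL1A1 (DESeq2 adjusted p = 0.00232). limma voom called 0 genes. The genes at an unadjusted p under 0.05 numbered 825 in limma voom and 722 in edgeR. With edgeR, LUM passed when control 4 was left out (adjusted p = 0.0318), and COL1A1 passed when control 7 was left out (adjusted p = 0.0363). The log2 fold changes of FMOD (-0.62) and PRELP (-0.30) shrank to -0.25 and -0.18 without control 2.

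**Figure D3:**
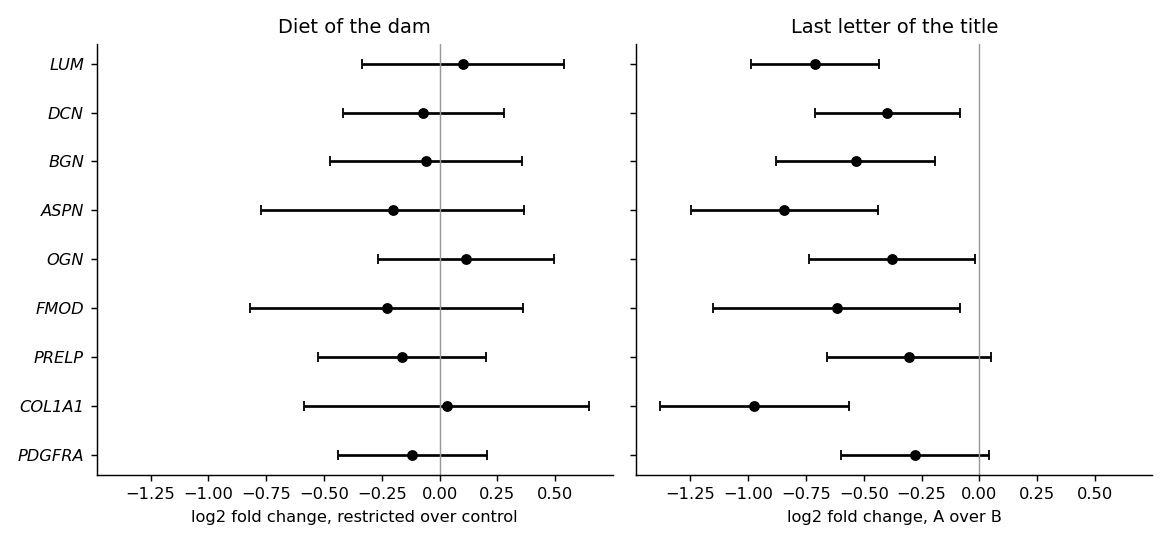
Log2 fold change with its 95% interval for the 7 members, COL1A1 and PDGFRA, restricted over control on the left and A over B on the right. By diet every interval includes 0, and by letter the intervals of LUM, DCN, BGN, ASPN, OGN, FMOD and COL1A1 lie below 0.

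Genes that work with the members were also lower in A in most cases, and none passed the edgeR threshold. COL1A1 averaged 61.7 ± 18.8 CPM in A and 118.9 ± 31.6 CPM in B animals, a fold change of 0.509 (0.384 to 0.676; edgeR adjusted p = 0.293). PDGFRA averaged 18.3 ± 4.26 CPM in A and 21.7 ± 3.9 CPM in B animals, a fold change of 0.825 (0.661 to 1.03; edgeR adjusted p = 0.861). All 14 collagen fibril genes and partners had negative log2 fold changes, beside 49.1% of all genes, with a median of -0.39. At an unadjusted edgeR p under 0.05, 10 of them lay lower in A, beside 3.81% of all genes. COL1A2 and COL3A1, both on this list, followed COL1A1 closely over the animals (Pearson's r of 0.99 and 0.94). The 10 genes are therefore not separate observations. All 9 tested proteases and inhibitors were negative (median -0.36), led by MMP2, a gelatinase, with 18.3 ± 4.34 CPM in A and 24.8 ± 3.95 CPM in B animals (edgeR adjusted p = 0.777).

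The chain-synthesis genes had 4 positive and 20 negative changes and a median of -0.16. CHST3, which sulfates chondroitin, had the smallest p on the negative side, with 1.37 ± 0.309 CPM in A and 2.05 ± 0.393 CPM in B animals (edgeR adjusted p = 0.753), and B4GALT7, which adds a galactose to the linker of the chain, on the positive side (log2 fold change 0.16, edgeR adjusted p = 0.916). In the TGF-beta list 6 changes were positive and 10 negative. TGFBR3, a co-receptor, had the smallest p on the positive side (0.16, edgeR adjusted p = 0.942). The other matrix proteoglycans had 4 positive and 10 negative changes, with SDC3 at -0.48 (edgeR adjusted p = 0.788) and SDC4 at 0.41 (edgeR adjusted p = 0.926), both syndecans of the cell surface. All 5 tested relatives with leucine-rich repeats were negative, with a median of -0.39, and TSKU had the smallest p, with 4.54 ± 1.05 CPM in A and 5.82 ± 1.31 CPM in B animals (edgeR adjusted p = 0.829).

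Markers of several cell types had fitted levels lower in A beside the members, and no marker of any list passed the edgeR threshold. Of 18 fibroblast and progenitor markers 16 were lower in A (median log2 fold change -0.24), and their summed level ran from 397 to 646 CPM in A and from 494 to 642 CPM in B animals. THY1 had the smallest p among them, with 11.1 ± 3.16 CPM in A and 18.96 ± 4.76 CPM in B animals (edgeR adjusted p = 0.404). The tendon and fascia markers other than FMOD summed to 46.6 to 96.7 CPM in A and 63.9 to 114 CPM in B animals, while TNMD, MKX, COMP and COL11A1 were at 0 in some animals. Of 11 adipocyte markers 9 were lower in A, with sums of 449 to 641 CPM in A and 534 to 795 CPM in B animals. These sums were led by CD36 at 238.0 CPM and LPL at 123.6 CPM. LPL had a log2 fold change of 0.07 and ADIPOQ of -0.64. Macrophage markers were lower in A for 9 of 10, with sums of 15.4 to 32.4 CPM in A and 20.1 to 41.9 CPM in B animals, and T and NK cell markers for 4 of 4, with sums of 2.1 to 7.1 CPM in A and 5.15 to 10.2 CPM in B animals. Endothelial markers had 4 positive and 7 negative changes (median -0.09), and smooth muscle and pericyte markers 4 and 8 (-0.08). Nerve and Schwann cell markers had 2 positive and 4 negative changes (median -0.02), and satellite cell markers 2 and 5 (-0.12). All 15 muscle fibre markers had positive changes, with a median of 0.09. Of all genes 49.1% had negative changes. The part of these cell types in the members' difference was not tested.

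Across the 14 animals all 7 members had higher levels where COL1A1 was higher. Pearson's r was taken on log2 CPM, and its p comes from a permutation test with 100000 resamples adjusted over all other genes tested; 14 relations were computed, 7 members with each of COL1A1 and PDGFRA. The members' r ran from 0.68 to 0.86 with a median of 0.81, beside a median of -0.01 over all genes. At an unadjusted permutation p under 0.05 all 7 were positively related to COL1A1, beside 6.81% of all genes in either direction. After adjustment 1 of 7 was called, beside 0.041% of all genes. That member was ASPN, with r of 0.86 (permutation p = 1e-05, the smallest these resamples can give, adjusted p = 0.0305) and Spearman's rho of 0.80 (permutation p = 0.00119). The other 4 genes called were collagen chains: COL1A2 at 0.99, COL3A1 at 0.94, COL8A1 at 0.91 and COL14A1 at 0.90. COL1A2, COL3A1 and COL8A1 shared ASPN's permutation p of 1e-05. A gene alone at that p would have an adjusted p of 0.122, so the call depended on how many genes reached it. Tested from ASPN's side, the pair had permutation p = 2e-05 and adjusted p = 0.122. When each animal was left out in turn, ASPN kept its call only without restricted 4, and its r stayed between 0.80 and 0.89. Its r was highest without restricted 1, where the call was lost.

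The other members followed in the order BGN (r = 0.83, rho = 0.77), LUM (0.82, 0.75), OGN (0.81, 0.78), FMOD (0.76, 0.67), DCN (0.75, 0.76) and PRELP (0.68, 0.75). Their adjusted permutation p ran from 0.183 to 0.489. Without restricted 7 and control 2, the animals farthest from the median of COL1A1, r lay between 0.61 for FMOD and 0.73 for ASPN, and all 7 kept an unadjusted permutation p under 0.05. In that setting 575 of 12186 genes had such a p in either direction. Within the 9 A animals r ran from 0.35 to 0.87. FMOD (0.87), PRELP (0.83), OGN (0.77) and DCN (0.77) kept an unadjusted exact permutation p under 0.05, while ASPN had 0.65 (exact permutation p = 0.0662), BGN 0.55 and LUM 0.35 (exact permutation p = 0.366). Of 12186 genes, 649 had an unadjusted p under 0.05 within A animals, in either direction. By Spearman's rho within A animals, DCN (0.88) and PRELP (0.87) had an unadjusted exact permutation p under 0.05, while FMOD had 0.62 (exact permutation p = 0.0857) and OGN 0.67 (exact permutation p = 0.0589). ASPN had 0.50 (exact permutation p = 0.178), BGN 0.28 (exact permutation p = 0.463) and LUM 0.23 (exact permutation p = 0.552). By that measure 621 of 12186 genes had an unadjusted p under 0.05 in either direction. No correlation was taken over the 5 B animals. With the letter means removed, r ran from 0.47 for LUM (permutation p = 0.0928) to 0.75 for OGN. The diets gave the same sign for every member, from 0.58 for PRELP to 0.88 for FMOD in restricted animals and from 0.67 for DCN to 0.92 for ASPN in control animals. The unadjusted exact permutation p was under 0.05 for 6 of 7 members in restricted and 5 of 7 in control animals. Of 12186 genes, 619 in restricted and 724 in control animals had such a p in either direction.

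**Figure D4:**
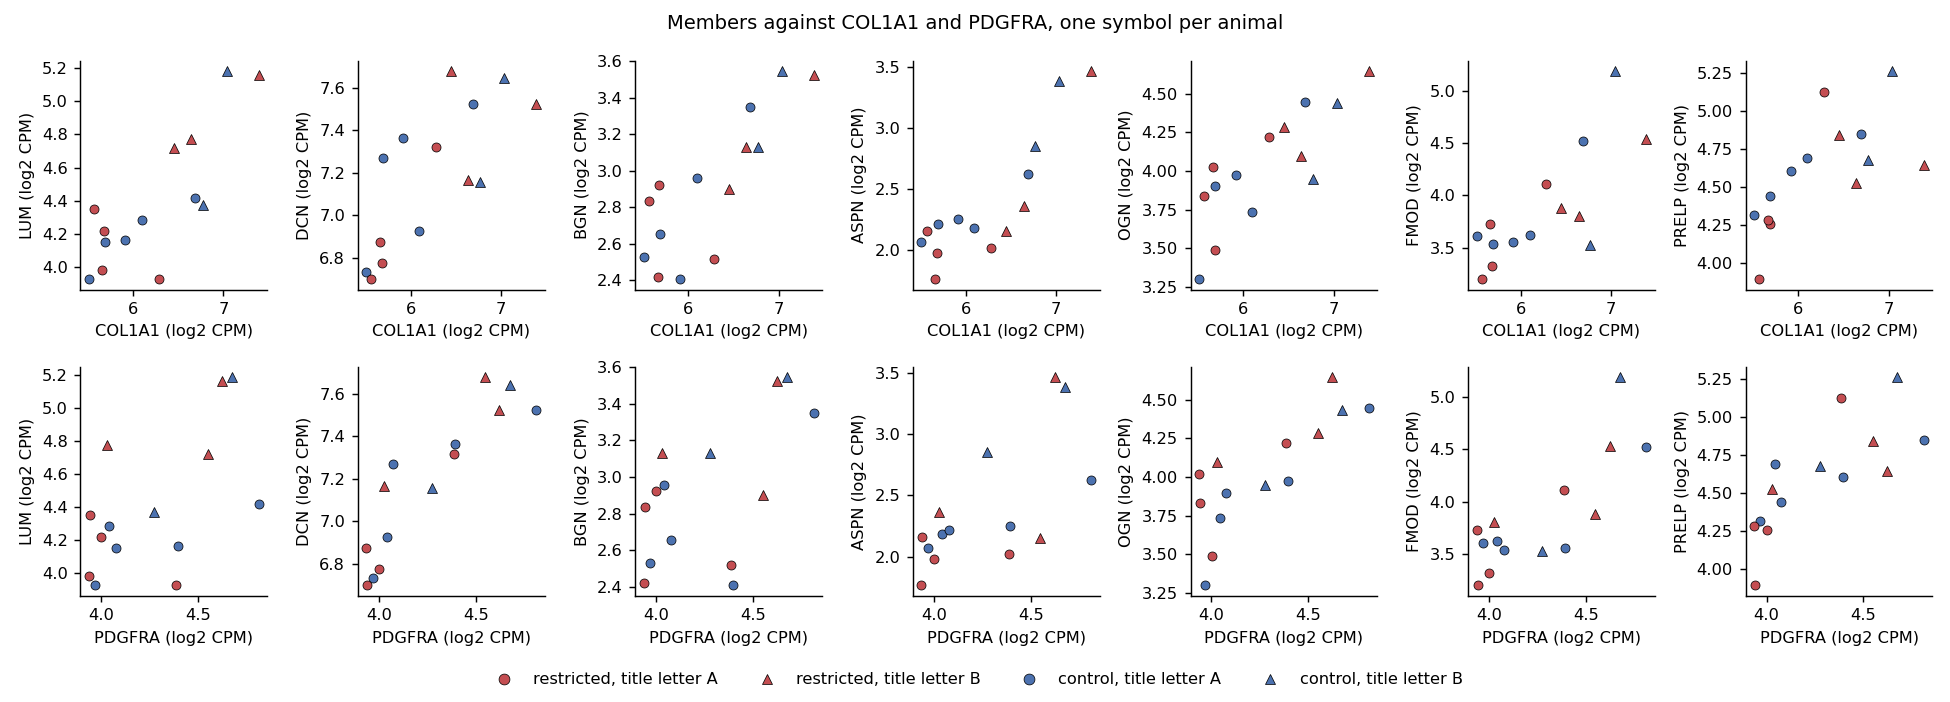
Each member's log2 CPM against that of COL1A1 (top) and of PDGFRA (bottom) in 14 animals, with circles for A, triangles for B, red for restricted and blue for control. ASPN follows COL1A1 most closely (r = 0.86) and DCN follows PDGFRA most closely (r = 0.90), while LUM against PDGFRA is the loosest panel (r = 0.57).

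The relation to PDGFRA ordered the members differently. DCN came first with r of 0.90 (permutation p = 2e-05, adjusted p = 0.0609) and rho of 0.91, above 99.98% of all genes, followed by OGN at 0.81, FMOD at 0.80 and PRELP at 0.76. ASPN had 0.67, BGN 0.58 and LUM 0.57 (permutation p = 0.0345). Spearman's rho was 0.76 for OGN, 0.67 for FMOD, 0.83 for PRELP, 0.67 for ASPN, 0.52 for BGN (permutation p = 0.0599) and 0.53 for LUM (permutation p = 0.051). By Pearson's r all 7 had an unadjusted permutation p under 0.05, beside 8.09% of all genes in either direction, and 0 of 7 were called after adjustment, beside 0% of all genes. Without control 2 and control 7, the animals farthest from the median of PDGFRA, DCN had 0.90, LUM 0.52 (permutation p = 0.0776) and BGN 0.33 (permutation p = 0.288). The relation of BGN thus no longer held without them, while r of LUM changed little on 12 animals. With restricted 5, restricted 7, control 2 or control 5 left out alone, 5 of 7 members had an unadjusted permutation p under 0.05 with PDGFRA. In those settings 909 to 1034 of 12186 genes had such a p in either direction. Among A animals DCN had 0.88 (n = 9, exact permutation p = 0.000108), FMOD 0.83, OGN 0.76, ASPN 0.75 and PRELP 0.72, beside 0.42 for BGN and 0.31 for LUM. By Spearman's rho within A animals DCN had 0.90, PRELP 0.80 and ASPN 0.73, while OGN had 0.52 (exact permutation p = 0.162) and FMOD 0.40 (exact permutation p = 0.291). LUM had 0.18 (exact permutation p = 0.644) and BGN 0.15 (exact permutation p = 0.708). Control 7, which stood apart from the other A animals for PDGFRA, is among these 9. With the letter means removed DCN had 0.88 and LUM 0.43. By diet DCN had 0.93 in restricted and 0.88 in control animals, and BGN 0.44 in restricted and 0.69 in control animals. The unadjusted exact permutation p was under 0.05 for 3 of 7 members in restricted and 4 of 7 in control animals. Of 12186 genes, 748 in restricted and 699 in control animals had such a p in either direction. COL1A1 and PDGFRA were themselves related (r = 0.76, permutation p = 0.00231), so the members' relations to each of them are not separate observations.

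No member's ratio to these genes passed the threshold by diet. A ratio is given as the gene's log2 CPM minus that of COL1A1 or PDGFRA, tested by exact permutation of the diet labels (smallest possible p 0.000583). For COL1A1 0 of 7 members were called, beside 0% of all genes, and the differences, restricted minus control, ran from -0.23 for ASPN (exact permutation p = 0.172) to 0.13 for OGN (exact permutation p = 0.535). For PDGFRA 0 of 7 were called, beside 0% of all genes. OGN had a log2 ratio to PDGFRA of -0.13 ± 0.215 in restricted and -0.36 ± 0.159 in control animals (SD, n = 7 each; exact permutation p = 0.0425, adjusted p = 1.0). LUM had 0.24 ± 0.389 in restricted and 0.04 ± 0.298 in control animals (exact permutation p = 0.297), and the other members differed by at most 0.13 in size. Within the 9 A animals the difference of OGN to PDGFRA was 0.21 (exact permutation p = 0.19), and no member was called.

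By letter, the members' log2 ratios to COL1A1 differed by 0.26 to 0.66, A minus B, and the members were not tested against each other. This comparison was chosen after the data were seen, and its background is high: 89.9% of all genes were called, with COL1A1 itself at a lower fitted level in A, and the median difference over all genes was 0.96. PRELP had a log2 ratio to COL1A1 of -1.40 ± 0.224 in A and -2.07 ± 0.436 in B animals, a difference of 0.66 (exact permutation test, adjusted p = 0.00581). DCN (0.58), OGN (0.56), FMOD (0.46) and BGN (0.44) were also called, so 5 of 7 members were called, and the same 5 had an unadjusted p under 0.05, beside 90.5% of all genes. FMOD lost its call in 8 of 14 fits that left out 1 animal, and BGN lost it without restricted 7. LUM had -1.74 ± 0.369 in A and -2.02 ± 0.285 in B animals, a difference of 0.27 (exact permutation p = 0.17). ASPN had -3.76 ± 0.298 in A and -4.01 ± 0.271 in B animals, a difference of 0.26 (exact permutation p = 0.141). All 7 differences lay below the median of all genes. Against PDGFRA 0 members were called by letter, beside 0% of all genes, and LUM (-0.43, exact permutation p = 0.022) and ASPN (-0.45, exact permutation p = 0.033) were the 2 of 7 members at an unadjusted p under 0.05, beside 8.46% of all genes.

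Among themselves the members were positively related in all 21 pairs over 14 animals. Pearson's r ran from 0.39 for LUM with PRELP to 0.86 for LUM with BGN, with a median of 0.66. An unadjusted permutation p under 0.05 was found in 17 pairs by Pearson's r and in 11 by Spearman's rho. It was found in 8 pairs within A animals (exact permutation) and in 7 with the letter means removed. Without the 2 animals farthest from the median of a pair's first gene, it was found in 9 pairs. The first gene is the earlier in the order LUM, DCN, BGN, ASPN, OGN, FMOD and PRELP, and this choice changes which pairs are counted. LUM with DCN had permutation p = 0.177 by the median of LUM and 0.0413 by that of DCN. FMOD with PRELP had permutation p = 0.00563 by FMOD and 0.0518 by PRELP. By Pearson's r 0 pairs passed after adjustment over all genes, beside 0% of all genes for each member. At that unadjusted p, Pearson's r over 14 animals gave shares of all genes of 7.07% for LUM, 7.8% for DCN and 6.11% for BGN. The share was 6.88% for ASPN, 6.36% for OGN, 6.25% for FMOD and 6.48% for PRELP. Depending on the member, 651 to 922 of 12186 genes had such a p by Spearman's rho and 479 to 948 within A animals. The numbers were 459 to 839 without the 2 animals farthest from that member's median and 540 to 904 with the letter means removed. The highest pairs were LUM with BGN (r = 0.86, permutation p = 7e-05), BGN with ASPN (0.85), DCN with OGN (0.84), LUM with ASPN (0.83), DCN with PRELP (0.80) and FMOD with PRELP (0.78). DCN and BGN, close relatives in sequence and both of class I, had 0.47 (permutation p = 0.0867). Within A animals r ran from -0.15 for LUM with PRELP to 0.82 for LUM with BGN and was positive in 20 of 21 pairs. All points of these pairs share the same 14 libraries and their depth.

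**Figure D5:**
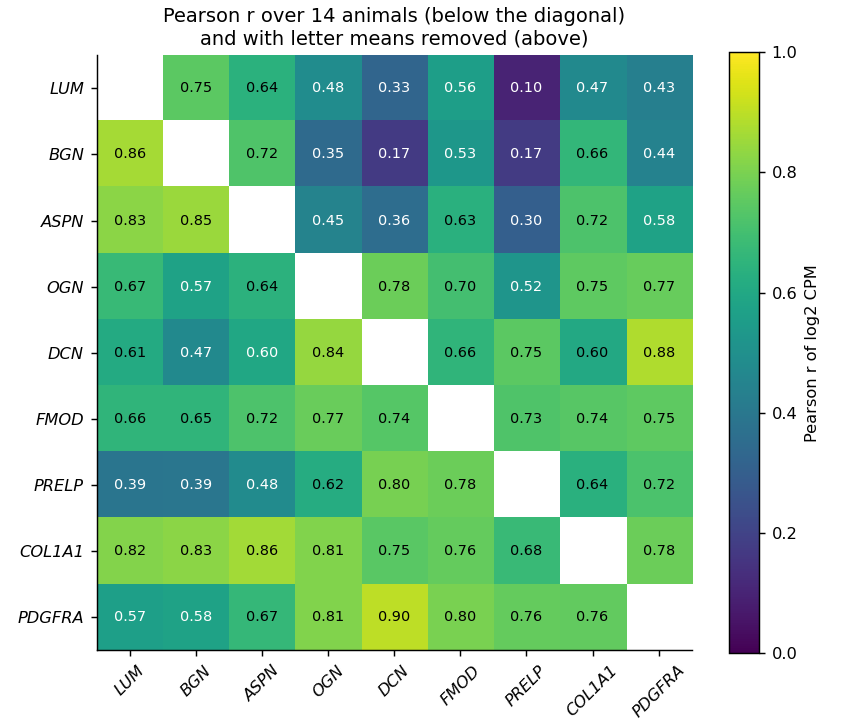
Pearson's r of log2 CPM between the members, COL1A1 and PDGFRA over 14 animals (below the diagonal) and with the mean of each title letter removed (above it). Among pairs of members LUM with BGN is the highest at 0.86 and LUM with PRELP the lowest at 0.39. With the letter means removed the pairs of members lie between 0.10 and 0.78. DCN with PDGFRA is higher, at 0.90 and 0.88.

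Several members are neighbours in the genome. In RefSeq's ARS-UCD2.0 annotation, used for gene order alone, all 7 symbols were found. LUM and DCN adjoin each other after EPYC and KERA, OGN and ASPN stand on either side of OMD, FMOD and PRELP adjoin each other before OPTC, and BGN lies apart on the X chromosome. Of the pairs named above as highest, FMOD with PRELP are such neighbours. LUM with DCN had r of 0.61 (permutation p = 0.0213), OGN with ASPN 0.64 (permutation p = 0.0135) and FMOD with PRELP 0.78 (permutation p = 0.00093). EPYC, OMD and OPTC in the same clusters were nearly unread, with 0 to 1, 0 to 9 and 1 to 7 reads per animal, whereas KERA had 6 to 70 reads and varied 11.4-fold in CPM.

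The genes most like each member were taken as the 3 outside the family with the highest r over 14 animals. For ASPN they were ANGPTL1 (0.92), COL3A1 (0.89) and COL1A2 (0.87). For LUM they were COL3A1 (0.88), CMTM7 (0.85) and ANXA2 (0.85), and for BGN NPTXR (0.89), NECTIN3 (0.88) and COL14A1 (0.87). DCN was closest to TGFBI (0.93), SEMA4F (0.92) and PDGFRA (0.90). For OGN the list held FCER1G (0.90), PLOD2 (0.88) and MFAP5 (0.87). FMOD was closest to COL14A1 (0.87), THY1 (0.85) and MFAP5 (0.85), and PRELP to PLOD2 (0.86), THBS2 (0.84) and PCSK6 (0.84). Collagen genes recur for ASPN, LUM, BGN and FMOD, and PLOD2, a lysyl hydroxylase that modifies collagen, for OGN and PRELP. None of these relations passed the permutation test after adjustment over all genes.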

How the data were processed

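RNA was sequenced from longissimus dorsi muscle of 14 animals, 7 restricted and 7 control by the treatment label. Replicates are numbered by sample order and are unpaired. The authors deposited raw, unnormalized read counts for each gene. Per the submitters' processing notes, FastQC, HISAT2, featureCounts and edgeR were used with the build ARS-UCD1.2; their versions, the annotation release and the strand setting are not stated, so reads of overlapping or antisense genes may be mixed. Per the labels, total RNA was treated with DNase and column purified. Of the deposited counts' 18078 rows, 2603 had no usable symbol and 54 symbols stood on several rows, of which the row with most reads was used.

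The main tests used edgeR 4.0.16 in R 4.3.3: filterByExpr by diet group (minimum count 10, minimum total 15), TMM scaling, and the quasi-likelihood F test with Benjamini-Hochberg adjustment over 12187 genes at 0.05. The fit by diet had no covariate and the fit by letter had diet as covariate. Fold change intervals are 95% intervals from the t distribution of the fit. The common biological coefficient of variation was 0.19 by diet and 0.188 by letter, and total counts ranged from 13631018 to 17325779. CPM and RPKM used TMM-scaled totals and, for RPKM, the deposited gene length. Correlations and ratios used log2 CPM with a prior count of 2, and permutation tests with 100000 resamples, or exact ones over all 5040 orders of 7 and 362880 orders of 9 animals and over all assignments of animals to the diets or letters, adjusted over all other genes tested. With 100000 resamples, a gene alone at the smallest p would have an adjusted p of 0.122. DESeq2 1.42.0 and limma 3.58.1 (voom) served as alternatives, beside other scalings, filters, prior counts, covariates, subsets of animals and leaving out each animal. The code was tested on simulated data. Libraries differed by a chi-square of at least 12.6 per degree of freedom, so none was a copy. The labels name separate animals.

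The members, lists and comparisons were chosen with earlier results of these data known. Genes named are the members, COL1A1, PDGFRA, the 3 genes most like each member, the gene of smallest p in each direction in each list where none passed, and the most abundant markers. COL8A1, and the genes in the same clusters as the members, were named after their values were seen, and so was THY1 singled out among the markers. No genome or sequence of the files' build was used here, so no coordinates or sequences are given. The result for 1 list gene is not reported here.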

Additional observations from a re-analysis of the deposited data

Results flagged for a closer look

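In groups of 4 to 10 animals, 5 values of the members or PDGFRA stood apart from the next animal by a large share of the group's range, among 36 groups examined that share animals. Chance marks about 1 group in 20. ASPN had 10.9 CPM in restricted 7, and the next restricted animal had 5.03 CPM. LUM had 36.2 CPM in control 2, and the next control animal had 21.2 CPM. Both of these are B animals. Control 7, an A animal, was the highest of the A animals for BGN with 10.1 CPM (next 7.64 CPM), for ASPN with 6.03 CPM (next 4.64 CPM) and for PDGFRA with 28.0 CPM (next 20.9 CPM).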

How the results depend on the processing

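No member was called by diet under any alternative run, and all 7 log2 fold changes by letter stayed negative in every fit. The number of all genes called by diet was 1 with DESeq2. By letter it was 1 with no filter on low counts, 20 with DESeq2 and 5 without control 7, restricted 4 and restricted 7, and 0 to 2 when each animal was left out. The 5 genes correlated with COL1A1 became 3 with Spearman's rho, 10 with library size scaling, 1 within A animals, and 0 without the 2 animals farthest from the median, within either diet group, with letter means removed, and with Spearman's rho within A, restricted or control animals, the last 3 added after the data were seen. Within a diet group of 7 animals the smallest possible exact permutation p was 0.000198. A gene alone at that p could not pass the adjustment over all genes, so the 0 within diet groups decides nothing. Leaving out each animal gave 0 to 6 genes correlated with COL1A1. With library size scaling 11 genes were correlated with PDGFRA, DCN among them (adjusted permutation p = 0.0244).

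Directions by diet were the unstable ones. With the last title letter as covariate the log2 fold change of LUM was -0.0204 and that of COL1A1 -0.15; COL1A1 was also at -0.0309 with library size scaling, -0.0853 with limma voom and -0.21 without control 7, restricted 4 and restricted 7. Leaving out each animal gave -0.0457 to 0.29 for LUM, -0.17 to 0.0055 for DCN, -0.19 to 0.061 for BGN, -0.38 to 0.0848 for FMOD and -0.24 to 0.19 for COL1A1. Within A animals the log2 ratios to COL1A1 turned to 0.0758 for BGN and 0.000601 for FMOD, and those to PDGFRA to -0.0547 for DCN, 0.011 for FMOD and 0.000488 for PRELP. Leaving out each animal gave ratios to COL1A1 of -0.00043 to 0.19 for LUM, -0.18 to 0.0508 for DCN, -0.14 to 0.0455 for BGN and -0.20 to 0.017 for PDGFRA, and ratios to PDGFRA of -0.0061 to 0.0749 for DCN, -0.0362 to 0.16 for BGN, -0.11 to 0.12 for FMOD and -0.017 to 0.20 for COL1A1. By letter the ratio of PRELP to PDGFRA ran from -0.12 to 0.0182. The cause of these changes was not tested.

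No paired analysis was possible because replicates were numbered by sample order, which ties no restricted animal to a control animal. Depth limits the least read members most, since ASPN had as few as 52 reads in an animal.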
